A study of Homo sapiens with 6 samples.

Results

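A direct comparison was made between A172 cells that received a miR-324-5p duplex and A172 cells that received a miR-324-3p.1 duplex. It used 4 of the 6 libraries of the study, 2 for each duplex, and left the 2 control libraries out of the test. A172 is an established human glioblastoma line. Per the labels, the cells were transfected with a lipid reagent, harvested after 1 day, and their oligo-dT enriched RNA was sequenced as stranded paired-end libraries. Cells of the control group were transfected with a control miRNA (miNC). The 3 groups carried no other stated genetic change or treatment, and every library therefore came from a single cell line exposed to transfection. The labels do not say whether the 2 replicates of a group were separate cultures, and p-values therefore reflect the spread among these libraries alone. Nor do they give the dose or the strands of either duplex.

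A microRNA is cut from an RNA hairpin, and either arm of the hairpin can be loaded into an Argonaute protein. The loaded strand finds messenger RNAs mainly through its seed, the bases near its 5′ end, which pair with short sites in 3′ untranslated regions (3′UTRs). Such pairing usually lowers the amount of the messenger RNA and of its protein. The arms of a hairpin have unrelated seeds, and a shift of the 5′ end by a base or more also changes the seed, so each arm and each start has targets of its own. In arm switching the preferred strand of a hairpin differs between cell states. MIR324 is a gene for which the choice of arm has been linked to uridylation of the hairpin's 3′ end by the terminal uridylyl transferases TUT4 and TUT7.

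The sequences below show why the arms are read apart by their sites. They come from RefSeq's MIR324 hairpin of 83 bases at chr17:7223297-7223379 on the minus strand (GRCh38.p14), and the capitals mark the seed, bases 2 to 8. RefSeq gives 1 mature sequence per arm, the 5p sequence starting at hairpin base 16 and the 3p sequence starting at base 50. Because the labels do not give the 3p.1 sequence, starts at bases 51 and 53 were read from the same hairpin as further candidates.
miR-324-5p, start 16: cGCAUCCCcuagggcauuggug
miR-324-3p, start 50: cCCACUGCcccaggugcugcugg
3p arm, start 51: cCACUGCCccaggugcugcugg
3p arm, start 53: aCUGCCCCaggugcugcugg
The corresponding 7-base sites (7mer-m8) are GGGATGC for the 5p arm, GCAGTGG for the 3p arm from base 50, GGCAGTG for the 3p arm from base 51 and GGGGCAG for the 3p arm from base 53. A site followed by an A is an 8mer, a match to seed bases 2 to 7 followed by an A is a 7mer-A1, and a match to bases 2 to 7 alone is a 6mer.

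A few target-site windows are shown because the genes they belong to carry the largest or the most clearly sited differences described below. Each is the messenger strand of a GENCODE 29 3′UTR (GRCh38), 5′ to 3′, with the site in capitals. The first 5 windows hold 5p sites, the next 3 hold sites of 3p start 53, and the last 2 hold sites of 3p start 51.
VDAC1 5p 8mer: gttgtatgtctGGGATGCAagtattgctaa
CUEDC2 5p 8mer: cagatcccagaGGGATGCAggagccctata
ARF3 5p 8mer: tcagtgcttgtGGGATGCAgtggtcttcag
PLPP1 5p 7mer-A1, upstream: acaaggcaagaGGATGCAtctttcttcct
PLPP1 5p 7mer-A1, downstream: ctatgcctcttGGATGCAcactttgtgtg
EI24 start 53 8mer: actaaatgtggGGGGCAGAtgtcaaaatac
TOMM20 start 53 8mer: aaagggagcaaGGGGCAGAtagctcagcaa
SDF2 start 53 8mer: ttgctggtaaaGGGGCAGAtgctttttatt
VPS25 start 51 8mer: cccacgggcctGGCAGTGAgaggtgtggcc
HSPD1 start 51 7mer-m8: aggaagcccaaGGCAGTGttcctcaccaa
The 5p sites lie at chr5:133972676-133972683 in VDAC1, chr10:102423372-102423379 in CUEDC2 and chr12:48937516-48937523 in ARF3, all on the minus strand. The PLPP1 sites lie at chr5:55425132-55425138 and chr5:55425071-55425077, also on the minus strand. The start 53 sites lie at chr11:125584616-125584623 in EI24 on the plus strand, and on the minus strand at chr1:235110299-235110306 in TOMM20 and chr17:28648747-28648754 in SDF2. The start 51 sites lie at chr17:42779545-42779552 in VPS25 on the plus strand and chr2:197486988-197486994 in HSPD1 on the minus strand.

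Expression was given in TPM, a unit scaled for transcript length and library size, so sequencing depth is unknown. The 4 libraries listed between 18660 and 18980 symbols each, and between 13216 and 13394 genes reached 1 TPM. On the log2(TPM + 1) scale the libraries correlated across genes with r between 0.977 and 0.990. The median absolute difference between replicates was 0.152 for the 5p duplex and 0.129 for the 3p.1 duplex, and between duplexes it ranged from 0.128 to 0.185 over the 4 pairs of libraries. The ranges of these medians within and between duplexes overlapped. Replicate 2 of the 5p duplex was as close to replicate 2 of the 3p.1 duplex (r = 0.990) as the 2 libraries of the 3p.1 duplex were to each other (r = 0.989). The glial and mesenchymal markers VIM, CD44 and EGFR were expressed in every library, with EGFR between 72.8 and 89.4 TPM over the 4 duplex libraries. GFAP, the astrocyte filament gene, was at 0.25 TPM or less, and FABP7, a radial glia marker, was listed at 0 in all 4. On the same marker list, PDGFRA, ALDH1L1, SLC1A3 and TNC also averaged under 1 TPM, and 11 markers reached that minimum.

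The test asked which genes differ in level between cells given one arm and cells given the other. Of 13340 genes that averaged 1 TPM or more over the 4 libraries, 28 (0.21%) passed an adjusted p of 0.05 in limma, 21 of them lower with the 5p duplex (0.157% of genes tested) and 7 higher (0.0525%). An unadjusted p under 0.05 was reached by 1325 genes (9.93%), 692 lower (5.19%) and 633 higher (4.75%), and the median log2 fold change of all genes tested was 0.00561. All fold changes here are 5p duplex minus 3p.1 duplex on the log2(TPM + 1) scale, which understates the change of low genes. Among the called genes, 20 of the 21 lower and 2 of the 7 higher were protein coding, and the other 6 were small RNAs or a pseudogene listed at 0 TPM in a whole group. The coding genes spanned log2 fold changes from -2.13 to -0.83 on the lower side and from 0.95 to 0.98 on the higher side. In the control libraries, the mean of all 20 lower coding genes was nearer to the 3p.1 duplex, and that of both higher coding genes nearer to the 5p duplex. The number called depended on the settings: with limma no gene passed when every listed symbol was tested (1827 at an unadjusted p under 0.05), and 59 passed with a minimum of 5 TPM or with all 6 libraries in the fit. Leaving out either 3p.1 library, with 1 residual degree of freedom left, gave 6 or 8 calls, of which 1 was among the 28.

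**Figure D1:**
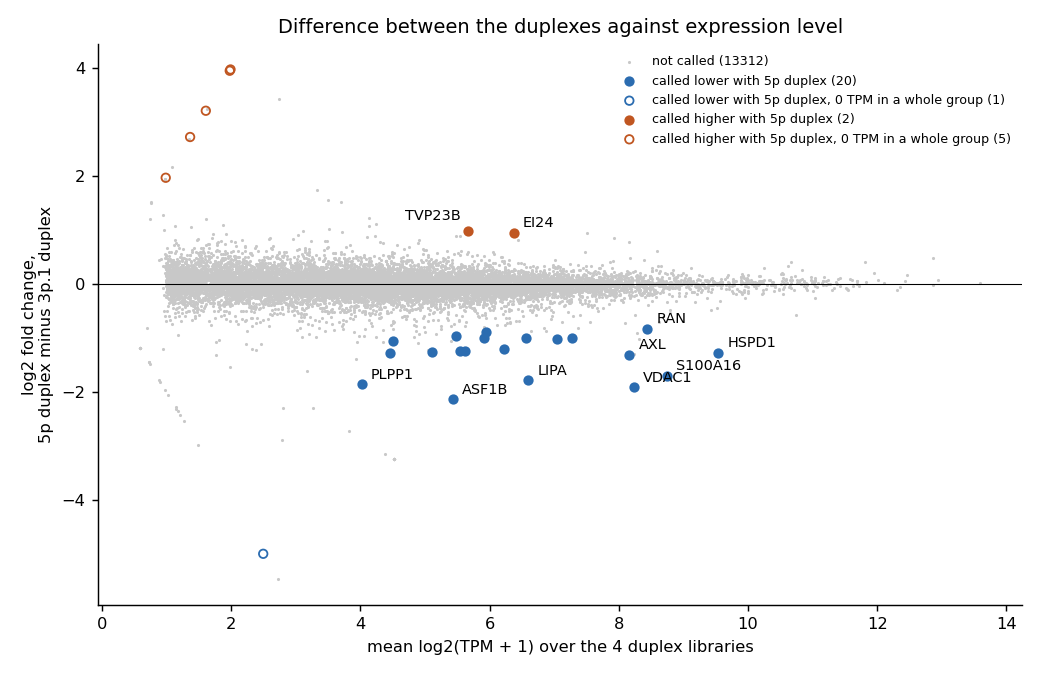
Each point is a gene of the 13340 tested; the x axis is the mean log2(TPM + 1) over the 4 duplex libraries and the y axis the log2 fold change, 5p duplex minus 3p.1 duplex. Filled coloured points are the 20 lower and 2 higher called genes with values in both groups, open points are the 6 called features at 0 TPM in a whole group, and the filled points reach lower (-2.13 for ASF1B) than they reach higher (0.98 for TVP23B).

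The lower coding genes are taken in turn by known role, a grouping made after the calls were seen and not tested. The call of 11 of the 20 (GPD2, KCTD20, ARF3, C16orf87, C6orf62, CUEDC2, SLC16A1, RAI14, RAN, TRUB2 and VPS25) was lost in each of the 4 fits that left out a library, and no call of the 20 was kept in all 4. Among mitochondrial genes, VDAC1 is the voltage-dependent anion channel of the outer membrane. VDAC1 stood at 159 and 149 TPM with the 5p duplex against 604 and 559 TPM with the 3p.1 duplex, beside 597 and 561 TPM in the controls. The 2 values with the 5p duplex lay far below the other 4, a log2 fold change of -1.91 ± 0.09 (SE; limma adjusted p = 0.00568). Its call was kept without either 5p library and lost without either 3p.1 library. The paralogues did not pass the test: VDAC2 had a log2 fold change of 0.08 and VDAC3 of -0.14 (adjusted p = 0.829 and 0.672). HSPD1, the mitochondrial chaperonin, was at 485 and 474 TPM with the 5p duplex against 1112 and 1204 TPM, a log2 fold change of -1.27 ± 0.09 (adjusted p = 0.0187). The gene for its partner HSPE1, which shares a promoter region with HSPD1 on the opposite strand, was at 887 and 855 TPM against 833 and 937 TPM and did not pass (adjusted p = 0.97). GPD2, the mitochondrial glycerol-3-phosphate dehydrogenase, was at 14 and 12.5 TPM against 35.9 and 31.0 TPM (log2 fold change -1.27, adjusted p = 0.0367).

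Further lower genes act on lipids. PLPP1, a phosphatase of lysophosphatidic acid and related lipids at the cell surface, was at 7.78 and 7.34 TPM with the 5p duplex against 30.5 and 29.2 TPM with the 3p.1 duplex (controls 36.7 and 32.6 TPM). The log2 fold change was -1.85 ± 0.11 (adjusted p = 0.00816). LIPA, the lysosomal acid lipase, was at 52.96 and 50.19 TPM against 165 and 193 TPM, a log2 fold change of -1.77 ± 0.11 (adjusted p = 0.00951). In both genes the controls lay with the 3p.1 duplex libraries and apart from the 5p duplex libraries, and both calls were lost without either 3p.1 library. The annotated exons of LIPA overlap IFIT2 on the opposite strand. Those of PLPP1 overlap MTREX on the opposite strand and RNF138P1 on the same strand. The strand setting of the authors' counting is not stated. IFIT2 stood at 3.53 to 4.39 TPM over the 4 libraries. LIPA was the single called gene of 28 tested lysosomal genes, of which 19 lay above 0 and the median was 0.0532. Among lipid synthesis genes with large differences that did not pass, SCD, the stearoyl-CoA desaturase, was at 200.4 and 183 TPM against 406 and 547 TPM (log2 fold change -1.29, adjusted p = 0.0625). SREBF2, the transcription factor of cholesterol synthesis, was at 12.4 and 12.6 TPM against 23.9 and 27.6 TPM (log2 fold change -0.98, adjusted p = 0.0583). Both carry a 5p 7mer-m8 site. Of 27 tested cholesterol synthesis genes, 17 lay below 0, with a median of -0.0684 and none called.

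Several other lower genes code for proteins of the cell surface, cytoskeleton or membrane traffic. S100A16, a calcium-binding protein, was at 199 and 283 TPM with the 5p duplex and 732 and 813 TPM with the 3p.1 duplex (log2 fold change -1.70 ± 0.18, adjusted p = 0.0482). AXL, a receptor tyrosine kinase for GAS6, was at 167 and 197 TPM against 439 and 459.9 TPM, with a log2 fold change of -1.30 ± 0.11 (adjusted p = 0.0316). AXL was the single called gene among 19 tested receptor kinases, whose median was -0.0238. WASF2, a subunit of the WAVE complex that drives branched actin, was at 21.5 and 20.9 TPM against 51.8 and 52.7 TPM (log2 fold change -1.26, adjusted p = 0.0187). ARF3, a small GTPase of the Golgi, was at 46.1 and 51 TPM against 105 and 121 TPM (log2 fold change -1.20, adjusted p = 0.0316), while its close relative ARF1 was at 491 and 501 TPM against 571 and 537 TPM and did not pass. VPS25, a subunit of the ESCRT-II sorting complex, was at 105 and 113 TPM against 223 and 215 TPM (log2 fold change -0.996, adjusted p = 0.0316). SYNGR2, a vesicle membrane protein, RAI14, an actin-associated protein, and SLC16A1, the monocarboxylate transporter MCT1, had log2 fold changes of -1.24, -0.99 and -0.89. In each of these 8 genes, every 5p duplex library was below every 3p.1 duplex and control library.

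The remaining called lower genes, nuclear, regulatory or of other roles, included the largest called difference of a coding gene. ASF1B, a histone H3-H4 chaperone of dividing cells, was at 16.6 and 23.2 TPM with the 5p duplex and 79.3 and 100.4 TPM with the 3p.1 duplex, beside 98.3 and 121 TPM in the controls. Its log2 fold change was -2.13 ± 0.19 (adjusted p = 0.0316), and its paralogue ASF1A had 0.18 (adjusted p = 0.746). RAN, the GTPase of nuclear transport, had the smallest called difference of the lower coding genes: 259.7 and 261 TPM against 455 and 468 TPM, a log2 fold change of -0.83 ± 0.08 (adjusted p = 0.0436). TRUB2, a pseudouridine synthase, was at 32.9 and 29.1 TPM against 60.6 and 61.8 TPM (log2 fold change -0.96, adjusted p = 0.0491). CUEDC2, a CUE domain protein reported as a target of miR-324-5p, was at 65.5 and 66.2 TPM against 137 and 126 TPM (log2 fold change -0.99, adjusted p = 0.0316). KCTD20, C16orf87 and C6orf62 completed the lower coding genes, with log2 fold changes of -1.24, -1.04 and -1.01. The exons of KCTD20 overlap PXT1 and those of C6orf62 overlap ACOT13, so these values cannot be assigned beyond doubt. The same holds for ARF3, whose exons overlap AC073610.2 and AC073610.3 on the same strand. It also holds for HSPD1, AXL and ASF1B, whose exons overlap HSPE1, AC011510.1 and AC022098.3 on the opposite strand.

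**Figure D2:**
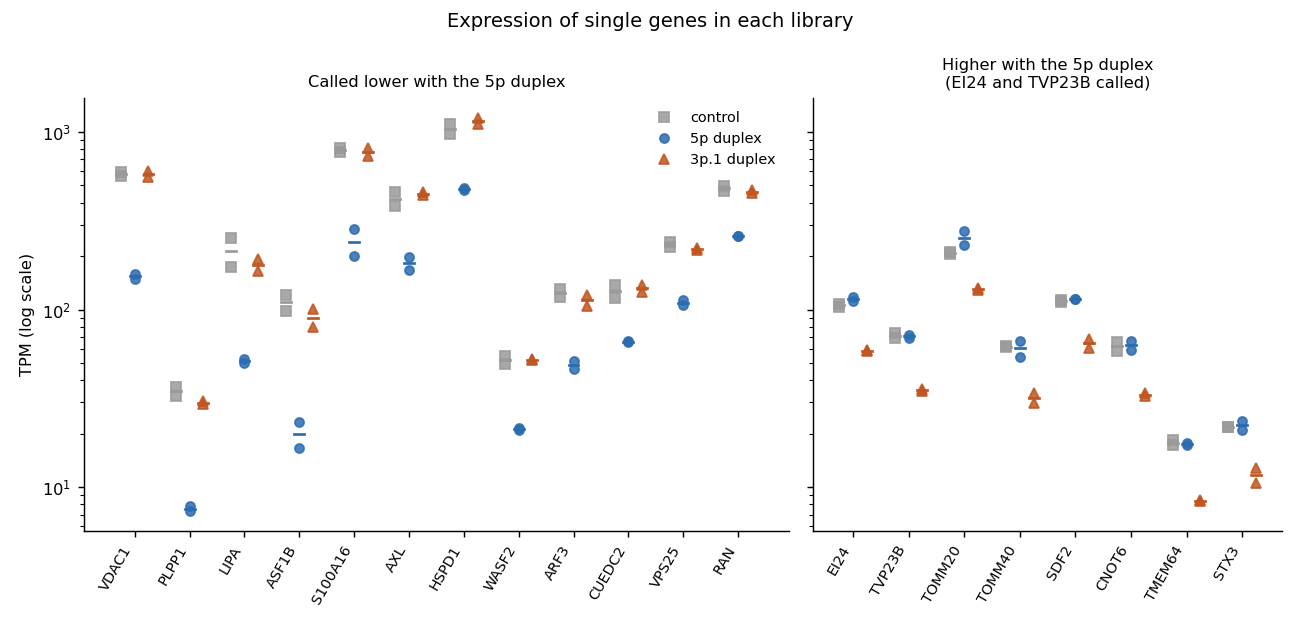
TPM on a log axis in each library for 12 genes called lower with the 5p duplex (left) and 8 genes higher with it (right); squares are control, circles 5p duplex and triangles 3p.1 duplex libraries, and short bars are means of 2 libraries. On the left the circles lie below both other groups, as for VDAC1 at 159 and 149 TPM, and on the right the triangles do, as for EI24 at 58.3 and 59.1 TPM.

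Coding genes called higher with the 5p duplex numbered 2. The balance of 7 higher and 21 lower calls did not hold in every fit: it was 4 and 4 without a variance trend and 6 and 6 without 5p duplex replicate 1. EI24, a membrane protein of the endoplasmic reticulum induced by p53, was at 118 and 111 TPM with the 5p duplex and 58.3 and 59.1 TPM with the 3p.1 duplex, beside 108 and 104 TPM in the controls. Its log2 fold change was 0.95 ± 0.09 (adjusted p = 0.0316). TVP23B, a Golgi membrane protein, was at 71.9 and 69.2 TPM against 34.8 and 35.6 TPM, with 68.9 and 73.4 TPM in the controls (log2 fold change 0.98 ± 0.09, adjusted p = 0.0316). TVP23B has a near copy, TVP23C, at 7.40 to 9.19 TPM, and reads could be split between them. Both calls were lost in each of the 4 fits that left out a library.

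Further coding genes followed by unadjusted p without passing. In TMEM64, CNOT6, TOMM20, TOMM40, SDF2, STX3 and CCNK the 3p.1 duplex libraries lay below both the 5p duplex and the control libraries. TMEM64, a membrane protein, was at 17.6 and 17.3 TPM against 8.33 and 8.45 TPM, with 17.2 and 18.3 TPM in the controls (adjusted p = 0.0522). CNOT6, a deadenylase subunit of the CCR4-NOT complex, was at 66.3 and 59.1 TPM against 32.6 and 33.7 TPM (adjusted p = 0.0524). TOMM20 and TOMM40, the receptor and the pore of the outer mitochondrial membrane's protein import complex, lay on the opposite side from VDAC1. TOMM20 was at 277 and 231 TPM against 132 and 128 TPM, beside 207 and 211 TPM in the controls (log2 fold change 0.95, adjusted p = 0.0583). TOMM40 was at 54.3 and 66.4 TPM against 29.6 and 34.0 TPM, beside 62.0 and 61.2 TPM in the controls (log2 fold change 0.90, adjusted p = 0.103). Over the whole list of 20 outer mitochondrial membrane genes, 1 was called, 13 lay below 0 and the median was -0.0431. SDF2, a protein of the endoplasmic reticulum lumen, STX3, a syntaxin of membrane fusion, and CCNK, a cyclin partner of transcription kinases, had log2 fold changes of 0.82, 0.89 and 0.69. CLDN4, a tight junction claudin, and ACTA2, smooth muscle actin, differed in another way: their 5p duplex libraries were the ones above the controls. CLDN4 was at 21.8 and 27.4 TPM with the 5p duplex, 11.1 and 10.9 TPM with the 3p.1 duplex and 12.4 and 13.98 TPM in the controls (adjusted p = 0.0646).

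A description of size that needs no test, drawn from the same 4 libraries, also had more lower than higher genes. Genes averaging 5 TPM or more, with groups that did not overlap and a log2 difference of at least 1, numbered 52 of 10553 (0.493%), 44 lower with the 5p duplex (0.417%) and 8 higher (0.0758%). For scale, 40.4% of all genes tested had groups of 2 that did not overlap. Of the 8 higher features 5 were protein coding (FRMD5, CLDN4, BTG2, TP53INP1 and U2AF1L5), and none of these 5 was called. Of the 44 lower features 23 were protein coding, 14 of them called. Of the other 21, 16 were RNA5S symbols with identical values in every library, at 0 and 55.6 TPM for the 5p duplex and 63.9 and 75.7 TPM with the 3p.1 duplex, and so amount to a single measurement. Uncalled coding genes among them included AGTRAP, an angiotensin receptor partner, at 7.51 and 9.58 TPM against 25.9 and 21.6 TPM, and DRAM1, a lysosomal membrane protein, at 23.4 and 18.4 TPM against 51.6 and 47.8 TPM. These 2 genes were chosen after their values were seen, and both hold a 5p 8mer. Small RNAs differed widely between replicates: SNORA31 was listed at 0 in both 5p duplex and both control libraries, with 91.7 and 20.0 TPM for the 3p.1 duplex. Of the called features at 0 in a whole group, SNORA71B was at 24.1 and 39.3 TPM with the 3p.1 duplex, while with the 5p duplex SNORA22 was at 17.9 and 12.2 TPM and SNORA29 at 12.3 and 17.1 TPM. RNU4-1, SNORA99 and the pseudogene DEFB109P1 were also listed at 0 in both 3p.1 duplex libraries. Such RNAs are mostly without a poly(A) tail, and a value of 0 in an oligo-dT library can be a failed estimate, so no fold is given.

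Sites for the 5p seed were concentrated among the lower genes. Of the 20 called lower coding genes 15 (75.0%) held a 7mer or 8mer 5p site in their longest annotated 3′UTR, against 14.5% of the 11952 tested genes with a 3′UTR. The 15 comprised 3 genes with an 8mer (VDAC1, ARF3 and CUEDC2), 8 with a 7mer-m8, AXL and RAN among them, and 4 with a 7mer-A1, PLPP1 and LIPA among them. Neither called higher coding gene held one. Among genes with an unadjusted p under 0.05 the share was 37.0% of 656 lower genes and 9.85% of 518 higher genes. The 7mer-A1 windows of PLPP1 and the 8mer of VDAC1 printed above share the core GGATGCA. These shares are descriptions of genes and were not tested over libraries.

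The shift of genes with a 5p site also grew with the class of site. Relative to genes with no 5p site, the median log2 fold change was -0.0894 for the 333 genes with an 8mer, -0.0559 for 725 genes with a 7mer-m8, -0.0331 for 674 genes with a 7mer-A1 and -0.0118 for 1231 genes with a 6mer. Of the 8mer genes 67.0% lay below 0, against 48.0% of genes with no site. The 8mer shift was negative in each of the 4 pairs of libraries, from -0.127 to -0.0702. Between replicates of 1 duplex the same genes shifted by -0.0241 (5p) and -0.0362 (3p.1). By number of 7mer or 8mer sites, the median was 0.00647 for genes with none, -0.0399 with 1, -0.0433 with 2 and -0.103 for 60 genes with 3 or more.

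**Figure D3:**
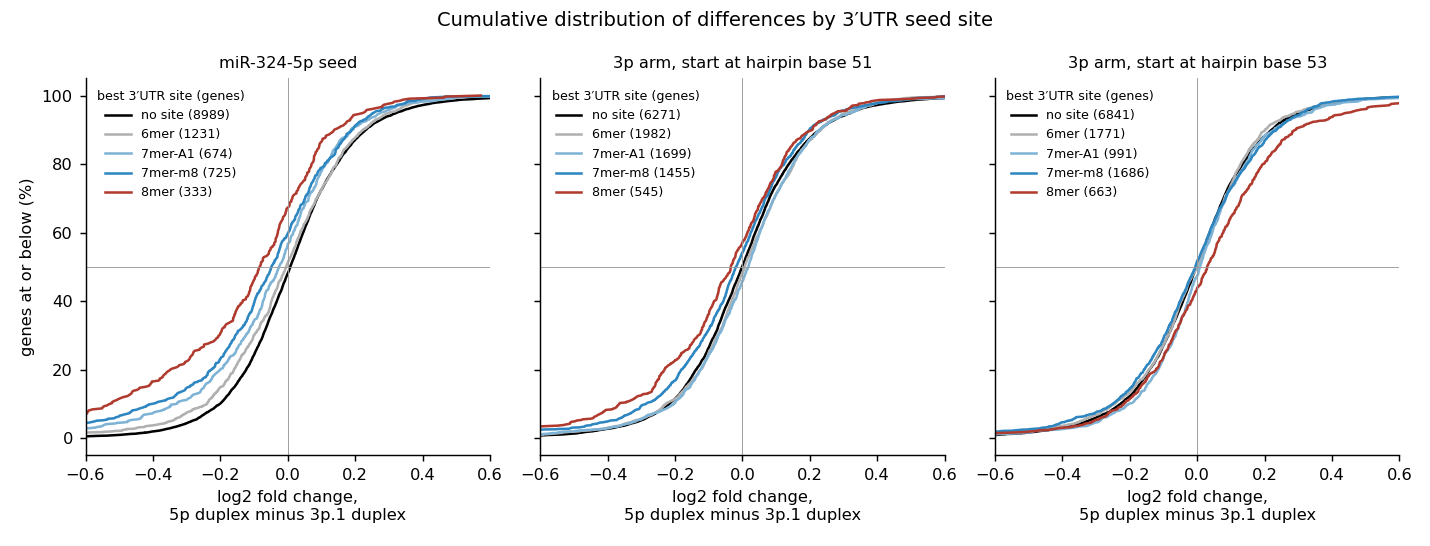
Cumulative share of genes (y axis, percent) at or below each log2 fold change (x axis, 5p duplex minus 3p.1 duplex) by the best site in the 3′UTR, for the 5p seed and 2 candidate starts of the 3p arm. For the 5p seed the curves run in the order of site class, with the 333 8mer genes farthest to the left. The 663 genes with an 8mer for start 53 lie to the right of genes without a site, and the 545 with an 8mer for start 51 lie to the left.

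For the 3p arm the candidate starts did not shift the same way. Genes with an 8mer for start 53 lay higher with the 5p duplex by 0.032 (663 genes, 56.1% above 0), that is, lower with the 3p.1 duplex. Genes with an 8mer for start 51 lay lower with the 5p duplex by -0.0333 (545 genes), and those for start 50 were shifted by 0.0111 (536 genes). The weaker classes did not follow the order seen for the 5p seed. For start 51 the shift was -0.0172 for 7mer-m8, 0.0186 for 7mer-A1 (1699 genes, 54.0% above 0) and 0.00782 for 6mer genes. For start 53 it was -0.00279, 0.0104 and 0.00284, and for start 50 it was 0.0106, 0.00688 and 0.00711. The 8mer shifts also depended on the 3′UTRs used: in 3′UTRs of 1000 to 4000 bases they were -0.0723 for start 51, 0.0136 for start 53 and -0.0273 for start 50. With the shortest annotated 3′UTR they were -0.074, 0.0465 and -0.00837. The start 53 shift was not steady over the 4 pairs of libraries, at 0.0137, -0.0234, 0.0924 and 0.053, and without 5p duplex replicate 2 it was -0.00495. The start 51 shift was negative in all 4 pairs, from -0.0441 to -0.0292. Among genes at an unadjusted p under 0.05, 11.4% of the higher and 4.27% of the lower genes held a start 53 8mer, against 5.55% of all genes with a 3′UTR. EI24 was the single called higher gene with such a site. TOMM20, TOMM40, SDF2, STX3 and CCNK, which did not pass, also hold a start 53 8mer. PPP5C, a protein phosphatase, and RYK, a WNT receptor-like kinase, hold one too, but RYK also holds a 5p 7mer-m8. TOMM20 also holds an 8mer for start 50. Start 53 was the 3p start used for naming genes, a choice that rests on EI24 alone. Of the 2 called higher coding genes, EI24 held the only 8mer or 7mer-m8 of any 3p start, while TVP23B held a 7mer-A1 for start 50. Genes named by this rule hold start 53 sites by construction. PPP5C was at 35.5 and 42.3 TPM with the 5p duplex against 19.9 and 23.3 TPM, and RYK at 51.6 and 47.1 TPM against 32.2 and 31.2 TPM (adjusted p = 0.13 and 0.119).

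Start 51 sites were instead common among lower genes, including those with no 7mer or 8mer for the 5p seed. Of the 5 called lower genes without a 5p 7mer or 8mer, ASF1B held a 5p 6mer, and C16orf87, HSPD1, TRUB2 and VPS25 held no 5p site. The latter 4 all held a 7mer or 8mer for start 51, the sites of HSPD1 and VPS25 being shown above. Among the 413 lower genes at an unadjusted p under 0.05 and without a 5p 7mer or 8mer, 38.5% held a start 51 7mer or 8mer. The share was 27.4% of all 10220 tested genes without a 5p 7mer or 8mer, and 27.2% of the 467 higher genes among them. The 3′UTRs of the lower genes had a median length of 1114 bases and those of all these genes 1196 bases. Whether either duplex carries a strand with the start 51 seed is not given in the labels.

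A scan of all 7-base words in the 3′UTRs ranked the arm sites without choosing them. Words found in at least 50 genes (16220 words) were ordered by a rank-sum z that sets the log2 fold changes of genes holding the word against the rest. The z is a description across genes and is given without a p. Its standard deviation over all words was 2.57. The 5p words GGGATGC (z = -11.4, 1058 genes) and GGATGCA (z = -9.67, 1106 genes) ranked 1 and 2 from the lowest. GGCAGTG, the 7mer-m8 word of start 51, ranked 3 (z = -6.89, 2000 genes), whereas its 7mer-A1 word GCAGTGA ranked 2900 (z = -0.141, 2719 genes). Close behind rank 3 came TGGATGC (z = -6.5), which holds the 5p 6mer. The next words, CCCCGGG (z = -6.11) and GGGGCCG (z = -5.85), were made of G and C alone and match no arm site. GGGGCAG, the 7mer-m8 word of start 53, ranked 10143 from the highest (z = 1.5), and its 7mer-A1 word GGGCAGA ranked 4760 from the highest (z = 4.03). The start 50 words GCAGTGG and CAGTGGA ranked 10270 and 7954 from the highest (z = 1.43 and 2.57). The z values were therefore not centred on 0, since CAGTGGA stood near the middle of the 16220 words. The highest words were rich in A and T, led by AAAATTA (z = 10.3).

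The relation of the difference to base composition of the 3′UTR depended on the 5p duplex library. From the group means, the median log2 fold change was 0.0153 in the lowest tertile of 3′UTR GC content, 0.0127 in the middle and -0.0311 in the highest. With 5p duplex replicate 1 the medians went down with GC content, from 0.0632 to -0.1 against 3p.1 duplex replicate 1 and from 0.0567 to -0.12 against replicate 2. With 5p duplex replicate 2 they went up, from -0.026 to 0.0525 and from -0.0352 to 0.033. Replicate 1 minus replicate 2 of the 5p duplex went from 0.0906 in the lowest tertile to -0.15 in the highest, and in the 3p.1 duplex from -0.00244 to -0.0142. Within tertiles the 5p 8mer shift was -0.0584, -0.102 and -0.0728 from the lowest to the highest, and negative in all 12 combinations of tertile and library pair. Within the same tertiles the start 53 8mer shift was 0.0903, 0.049 and 0.0282, and the start 51 8mer shift -0.0753, -0.0339 and -0.00627.

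**Figure D4:**
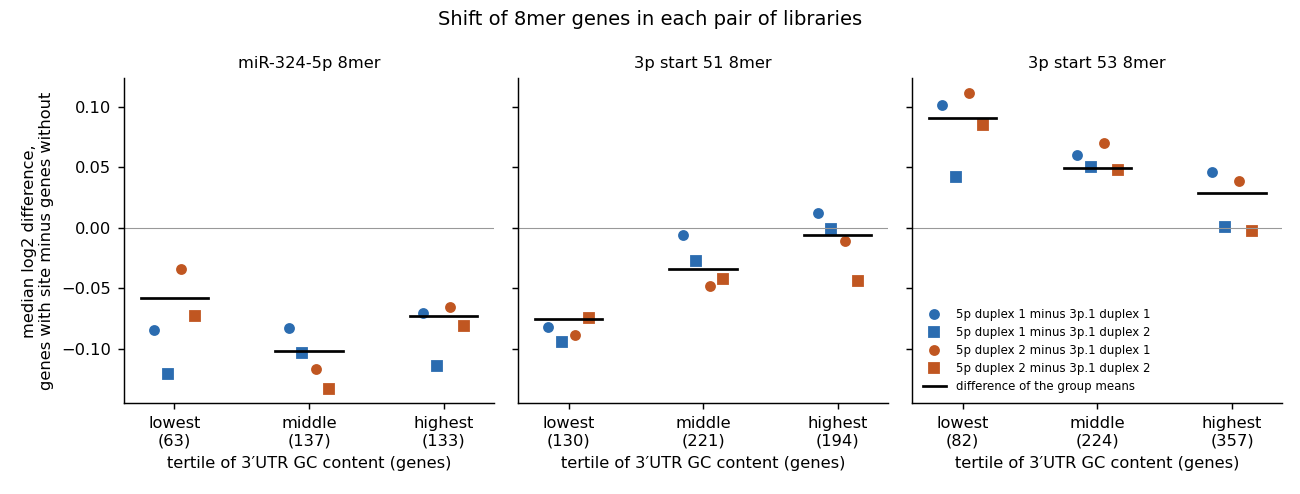
Median log2 difference of genes with an 8mer minus genes without a site (y axis), by tertile of 3′UTR GC content (x axis, number of 8mer genes in brackets), for the 5p seed and 3p starts 51 and 53; points are the 4 pairs of libraries and bars the difference of the group means. The 5p points are all below 0, and the start 53 bars fall from 0.0903 to 0.0282 with rising GC content.

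Among genes reported elsewhere as targets of either arm, a list recalled from the literature, CUEDC2 alone was called. Of 8 tested 5p targets 7 lay below 0, with a median of -0.156 (from -0.357 to -0.0914 over the pairs of libraries). An unadjusted p under 0.05 was reached by 3 of the 8, all lower, against 5.19% lower among all genes tested. SOCS3, a feedback inhibitor of cytokine signalling, had a log2 fold change of -0.38 and FBXO11, a ubiquitin ligase subunit with a 5p 8mer, of -0.28 (adjusted p = 0.357 and 0.446). SMO, the Hedgehog signal transducer, was at 17.9 and 17.0 TPM against 18.3 and 18.4 TPM (log2 fold change -0.07, adjusted p = 0.88). GLI1, the Hedgehog transcription factor, was below the minimum at 0.80 to 0.94 TPM. No Hedgehog gene was called among 9 tested (median -0.081). Of 7 tested 3p targets none was called, 4 lay below 0 and the median was -0.0854. CREBBP, an acetyltransferase, had 0.10 and DVL2, a Wnt pathway scaffold, -0.09.

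Machinery that makes and tails microRNAs did not pass the test either. TUT4 (listed as ZCCHC11) was at 26.4 and 22.6 TPM against 24.0 and 24.5 TPM, with a log2 fold change of 0.01 (adjusted p = 0.981). TUT7 (listed as ZCCHC6) was at 23.4 and 21.7 TPM against 19.0 and 18.4 TPM, with 0.26 (adjusted p = 0.494). DICER1, the enzyme that cuts the hairpin, had -0.01 (adjusted p = 0.976). Over 19 tested genes of the pathway 12 lay above 0 and the median was 0.0424.

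Among the other gene lists, p53 target genes had the highest median with the 5p duplex of the 30 lists with 5 or more tested members. No gene of this list was called. Of 27 tested, 24 lay above 0, with a median of 0.329 against 0.00561 for all genes tested. An unadjusted p under 0.05 was reached by 11, all higher, against 4.75% higher among all genes tested. The list leaves out EI24, which was called higher, and DRAM1, which was lower and not called. The list median was positive in each pair of libraries, from 0.149 to 0.545. CDKN1A, the cyclin-dependent kinase inhibitor p21, was at 398 and 347 TPM with the 5p duplex, 261 and 178 TPM with the 3p.1 duplex and 303 and 189 TPM in the controls (log2 fold change 0.78, adjusted p = 0.273). TP53INP1, a stress-induced p53 cofactor, was at 30.3 and 22.1 TPM against 12.3 and 9.01 TPM, beside 23.7 and 15.5 TPM in the controls (log2 fold change 1.22, adjusted p = 0.13). BTG2, an antiproliferative gene, was at 29.2 and 24.7 TPM against 14.1 and 9.86 TPM, beside 20.1 and 12.6 TPM in the controls (log2 fold change 1.12, adjusted p = 0.13). In all 3 genes replicate 1 was above replicate 2 in every group. MDM2 and BBC3, textbook p53 targets, had log2 fold changes of 0.16 and -0.003.

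Genes of S phase entry and the replication histones lay on the lower side with the 5p duplex. Of 38 tested G1/S genes 32 lay below 0 (median -0.186) and none was called. An unadjusted p under 0.05 was reached by 9 of the 38, all lower, against 5.19% lower among all genes tested. In bulk RNA, fewer cells in S phase and less of the G1/S RNAs per cell cannot be told apart. The median level of the G1/S list was 64.7 and 65.2 TPM with the 5p duplex and 72.6 and 74.4 TPM with the 3p.1 duplex. In the controls this median was 66.2 and 81.0 TPM. ORC1, a subunit of the origin recognition complex, was at 16.5 and 16.7 TPM against 23.8 and 25.3 TPM (log2 fold change -0.54, adjusted p = 0.171). The ORC1 controls were at 17.5 and 23.3 TPM. MCM2, a subunit of the replicative helicase, was at 76.9 and 81.0 TPM against 99.4 and 98.5 TPM (log2 fold change -0.32, adjusted p = 0.305). The MCM2 controls, at 79.8 and 84.2 TPM, lay nearer to the 5p duplex. RBL1, the pocket protein p107, was at 8.94 and 8.90 TPM against 16.1 and 17.3 TPM and holds a 5p 7mer-m8 (log2 fold change -0.83, adjusted p = 0.0689). The RBL1 controls, at 13.0 and 18.5 TPM, lay nearer to the 3p.1 duplex. All 11 tested replication histones lay below 0 (median -0.314), from -0.63 for HIST1H4H to -0.03 for HIST1H2BD, and none was called. Near-identical histone copies and messenger RNAs that mostly lack a poly(A) tail make these values uncertain. Of 19 histone chaperones 15 lay below 0 (median -0.117), and ASF1B was called. G2/M genes lay below 0 in 38 of 41 (median -0.0889), but the list median ran from -0.362 to 0.141 over the pairs of libraries.

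**Figure D5:**
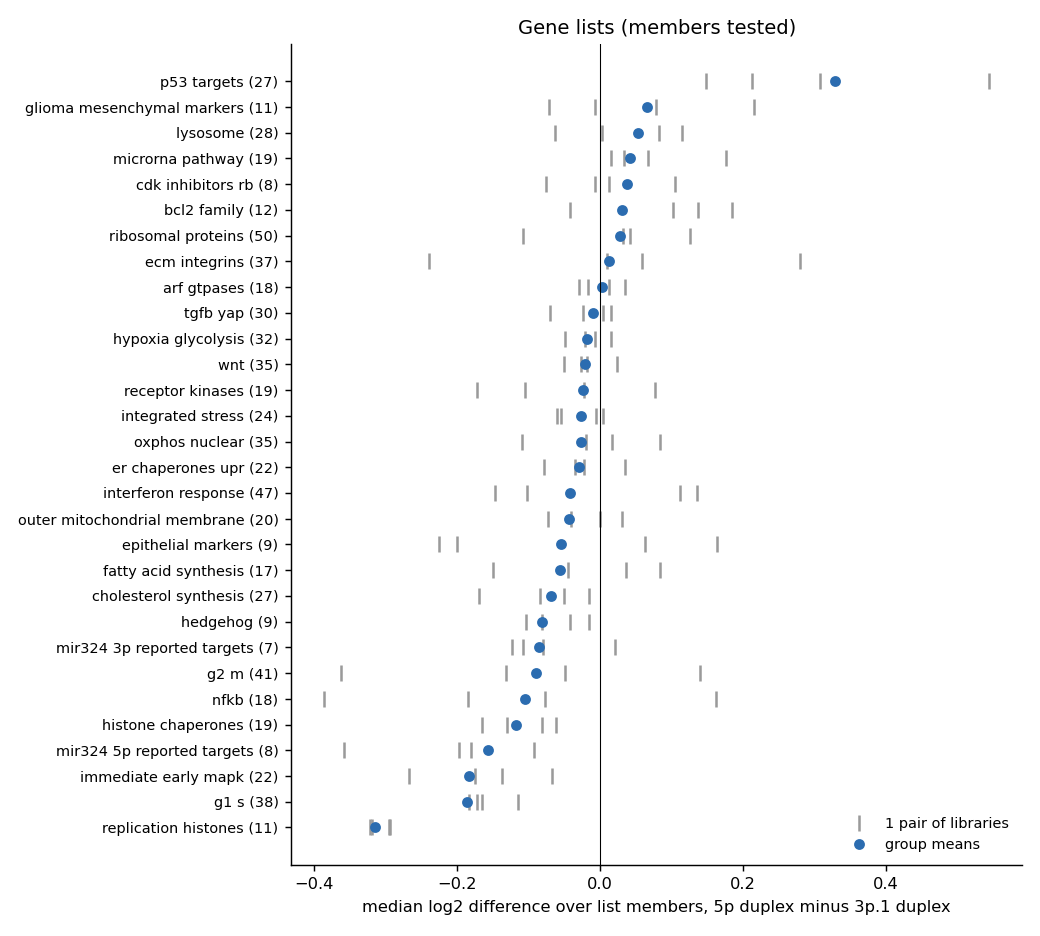
Median log2 difference (x axis, 5p duplex minus 3p.1 duplex) over the tested members of each gene list, with their number in brackets; blue points are from group means and grey ticks from each of the 4 pairs of libraries. The p53 targets (0.329) and replication histones (-0.314) lie at the ends with all 4 ticks on 1 side of 0, whereas G2/M ticks fall on both sides.

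Growth-signal response genes and stress lists held no called gene. Of 22 immediate early and MAPK feedback genes 18 lay below 0 (median -0.183), among them SPRY2, a feedback inhibitor of receptor kinases, at 4.77 and 5.30 TPM against 8.95 and 10.9 TPM (log2 fold change -0.85, adjusted p = 0.135). XBP1, the transcription factor of the unfolded protein response, was at 21.9 and 23.1 TPM against 39.4 and 45.8 TPM (log2 fold change -0.89, adjusted p = 0.0646), while the list of 22 endoplasmic reticulum chaperone genes had a median of -0.0289. Integrated stress, hypoxia and glycolysis, oxidative phosphorylation, extracellular matrix and ribosomal protein lists had medians between -0.0259 and 0.0291.

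Interferon-response genes did not separate the duplexes but differed between the controls. Of 47 tested genes 26 lay below 0 (median -0.0413), and the median level was 15.3 and 12.7 TPM with the 5p duplex and 13.8 and 14.6 TPM with the 3p.1 duplex. The same median was 50.5 and 133 TPM in the controls, so the position of a control value relative to the duplexes moves with this list as well, and its part in the results was not tested. Markers of other cell types held no called gene. Of 9 tested epithelial markers 4 lay above 0, 5 had groups that did not overlap and 3 had an unadjusted p under 0.05, KRT18 (-0.44) and CLDN1 (-0.50) lower and CLDN4 (1.08) higher. Over all genes tested, 40.4% had groups that did not overlap and 9.93% had an unadjusted p under 0.05. The summed levels of the epithelial markers were lower with the 5p duplex, with sums of 956 and 1086 TPM (5p) and 1230 and 1391 TPM (3p.1), and CDH1 was at 0.16 TPM or less. The part of these markers in the results was not tested. Of 3 tested blood and endothelial markers 1 lay above 0, CD68, a lysosomal glycoprotein of macrophages, at 54.5 and 60.2 TPM against 42.3 and 32.7 TPM (adjusted p = 0.264). PECAM1, the endothelial marker, was at 0.39 TPM or less. Of 4 tested neuronal markers 2 lay above 0, and RBFOX3 was at 0.27 TPM or less.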

How the data were processed

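The authors deposited 1 table of gene symbols with TPM for each library; RSEM and GRCh38 are named per the submitters' processing notes, while neither the aligner, the annotation, the strand setting nor any version is given in the sources used here. Values of a repeated symbol were summed and an unlisted symbol was set to 0 (20481 symbols in the 4 libraries). TPM are not counts and their depth is unknown, so no count test or counting interval is given. Genes averaging 1 TPM or more in the 4 duplex libraries were fitted as log2(TPM + 1) with limma 3.58.1 in R 4.3.3 (2 groups, no block, eBayes with trend, 2 residual and 3.784 prior degrees of freedom), two-sided, with Benjamini-Hochberg adjustment over all 13340 genes and a threshold of 0.05. Every adjusted p in the text is from this limma fit. Its check on simulated data drew independent noise for each library, so it does not cover deviations shared by same-numbered libraries. With 2 against 2 an exact permutation test cannot go below p = 0.333 and was not used.

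Symbols were matched to GENCODE 29 (12574 by symbol, 315 by an older symbol from RefSeq's gene table, 451 not matched), and sites were sought in the longest annotated 3′UTR (median 1379 bases). Genes were named by rule: up to 15 per direction among called genes of at least 5 TPM, then by unadjusted p; up to 3 per list; up to 10 per direction with an 8mer or 7mer-m8; and 9 fixed genes. Others are named for a paralogue, overlap, marker or list beside a result and were chosen after their values were seen. The comparison, its gene lists (32) and candidate 3p starts were chosen with earlier results of these data known. Alternatives covered the pseudocount, the minimum level, the libraries in the fit, a replicate block, the variance trend, scaling, left-out libraries and the 3′UTR used.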

Additional observations from a re-analysis of the deposited data

How the results depend on the processing

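The count of 28 called genes moved with the settings. It was 0 when no low genes were left out (1827 at an unadjusted p under 0.05), 59 with a minimum of 5 TPM (25 of the 28 kept), 59 with all 6 libraries (26 kept) and 8 without a variance trend (4 higher, 4 lower), and between 26 and 32 with other pseudocounts or scalings. Leaving out a library gave from 6 to 37 calls, with the lone library of a group assumed to vary like the other; the count was 12 without 5p duplex replicate 1, and 6 and 8 without 3p.1 duplex replicate 1 or 2. With the replicate number as a block the count was 1593 (750 higher, 843 lower; 4 libraries, 1 residual degree of freedom) and 297 (90 higher, 207 lower; 6 libraries). The labels give the numbers no shared batch; deviations of same-numbered libraries correlated between the duplexes with r = 0.376 across genes, a single value since there are 2 numbers. The 52 large separated differences ranged from 46 to 86 without a library, 86 being without 3p.1 duplex replicate 1. The shift of 5p 8mer genes (-0.0894) was -0.0674 with a pseudocount of 5 and -0.0447 with no filter, and from -0.101 to -0.0685 without a library; with 3′UTRs of 1000 to 4000 bases alone, chosen after seeing the data as was the split by GC content, it was -0.1. No named gene changed direction while passing the threshold. Causes were not tested. Unknown depth limits statements on genes near the minimum level.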

Other observations

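Some genes of the TGF-beta and Wnt pathways gave values not described above. TGFBR2, the type II TGF-beta receptor, was at 87.3 and 87.7 TPM against 117 and 119 TPM (log2 fold change -0.43, limma adjusted p = 0.197). BCL9, a Wnt coactivator with a 5p 7mer-m8, was at 3.95 and 4.19 TPM against 6.61 and 6.5 TPM (log2 fold change -0.58, adjusted p = 0.229), and no Wnt gene of 35 tested was called. U2AF1L5, a near copy of the splicing factor gene U2AF1, was at 34.1 and 12.8 TPM with the 5p duplex and 1.89 and 0.44 TPM with the 3p.1 duplex, beside 1.19 and 12.1 TPM in the controls; reads may be split between the copies.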
